A study of Drosophila melanogaster with 6 samples.

Results

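The Toll and Imd signalling genes examined here are Tl, spz, tub, pll, cact, dl, Dif, Rel, imd and key, 10 of the 13955 genes counted in each library. They were listed by name, with earlier results of these data known, and the symbols were matched to the gene identifiers of the deposited counts. Transcripts were counted in 3 control and 3 CncC overexpression libraries from wing discs of Drosophila melanogaster, the epithelial sacs of the larva that form the adult wing. CncC is a stress-responsive transcription factor and the fly counterpart of Nrf2. The comparison asked which transcripts change when CncC is raised across the disc. The study's methods give both genotypes as females at the wandering L3 stage, kept at 28 °C, with hs-FLP, a Gal4 driver under the ubiquitously active tubulin promoter, UAS-CD8-GFP and tub-Gal80ts, a temperature-sensitive repressor of Gal4. UAS-nrf2 was added in the CncC overexpression larvae. The sample labels instead call the controls wild type, and their titles read yw. Should the wild type label be right, effects of strain, driver, GFP and Gal80ts cannot be told apart from those of CncC. The labels do not say whether the replicates came from separate larvae or dissections, so p-values measure only the spread between these libraries.

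Toll and Imd are the principal routes to NF-kB in flies, and they are best known for switching on antimicrobial peptide genes in the fat body after infection. In the Toll pathway the cleaved ligand Spätzle, product of spz, binds the receptor Toll, product of Tl. The adaptors Myd88 and Tube, product of tub, then recruit the kinase Pelle, product of pll. Signalling leads to the loss of Cactus, product of cact, an inhibitor that holds the NF-kB factors Dorsal and Dif in the cytoplasm. In the Imd pathway peptidoglycan recognition proteins signal through the adaptor encoded by imd to a kinase complex whose regulatory subunit is Kenny, product of key, and to the cleavage of the NF-kB factor Relish, product of Rel. Toll also patterns the dorsoventral axis of the embryo, and components of both routes have been linked to cell competition in wing discs.

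The total count lay between 16464410 and 16682764 per library. The overexpressed gene cnc (FBgn0262975, chromosome 3R from 23185580 to 23226711 on the minus strand) had 1983, 1777 and 1848 counts in control and 84044, 147169 and 172120 in CncC overexpression. All libraries thus matched their labels. Counts were scaled with edgeR's TMM factors and compared by its quasi-likelihood F test. P-values were adjusted by the Benjamini-Hochberg method over the 8361 genes that had enough counts, and a gene passed at an adjusted p-value under 0.05. Normalized counts are counts after this scaling. The 10 wing disc markers summed to 28227 to 32651 normalized counts in control and 32432 to 39504 in CncC overexpression. Of these 10, 5 passed as higher and 2 as lower, beside 30.9% and 31.6% of all genes tested. Markers of other cells were also present. The sum over 8 fat body markers ranged from 208 to 9216 and was highest in control replicate 2. That over 4 tracheal markers was 17980 to 21877 in control and 25516 to 31621 in CncC overexpression. Of these 4, verm, serp and Gasp passed as higher, or 3, beside 30.9% of all genes tested. The largest part of the sum was verm, with means of 11076 normalized counts in control and 16458 in CncC overexpression. The fourth, trh, did not pass and its libraries overlapped (means of 1073 and 1261). Over 11 haemocyte markers the sum was 3419 to 3780 in control and 4453 to 5082 in CncC overexpression. The sum was carried by Col4a1, which went from a mean of 2553 to 3782 normalized counts and passed as higher, as did Pxn (173 to 250.0). Means of Hml (35.7 to 22.0), PPO2 (70.3 to 27.9) and crq (766 to 710.0) went the other way without passing. NimC1, He, srp, eater and Sr-CI were too low to test, with at most 18 counts in any library. Means in CncC overexpression were lower for He, srp and eater, higher for NimC1 (0.674 to 2.91) and near the control for Sr-CI (7.52 to 7.49). The marker lz had 0 counts in all but 1 library. Over 5 muscle precursor markers the sum was 3776 to 3924 in control and 2678 to 3288 in CncC overexpression. Of these 5, 3 passed as lower, beside 31.6% of all genes tested. The part of these cells in the results on the Toll and Imd genes was not tested, and fewer cells of a type and less RNA per cell cannot be told apart in whole discs.

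All 10 genes passed the filter on low counts. In CncC overexpression dl, Dif and Rel, which encode the NF-kB factors of flies, rose together with pll and key, while cact fell. The largest rises were those of dl, at 1.97-fold, and Rel, at 1.91-fold. Tl, spz, tub and imd did not pass the test. Thus 5 of the 10 genes were higher and 1 was lower, beside 30.9% of all genes tested that were higher and 31.6% that were lower. With a fold change of at least 1.4 also required, dl, Dif, Rel and pll were higher, beside 20.5% of all genes. No member was lower with a fold change of at most 0.6, beside 12.4% of all genes. The normalized counts did not overlap between the genotypes for 6 higher members and 1 lower member, beside 33.6% and 34.9% of all genes. The median log2 fold change was 0.19 over the 10 genes and -0.01 over all genes tested. Most genes tested were called in these libraries, and no test of the 10 genes as a group was made.

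**Figure D1:**
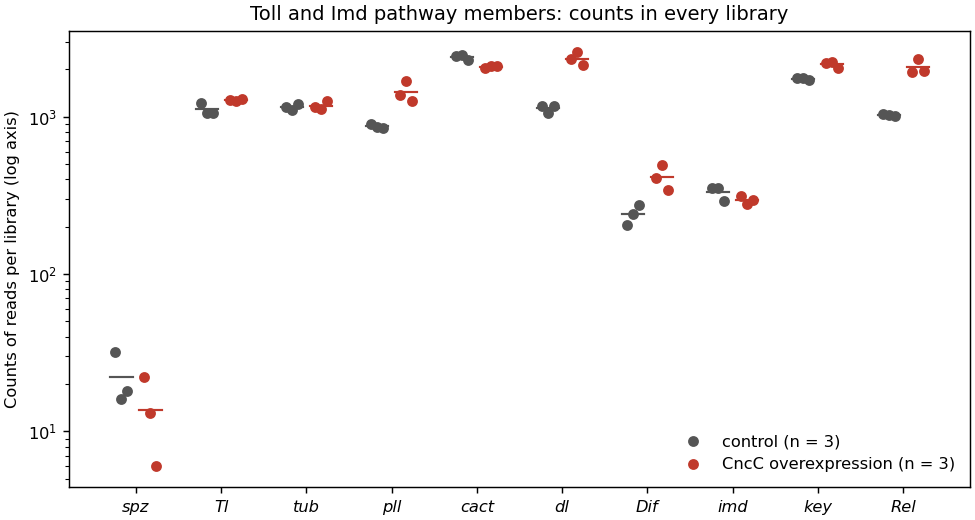
Counts of reads of the 10 genes in every library, on a log axis, with 1 point per library and a bar at the mean of each genotype (grey, control, n = 3; red, CncC overexpression, n = 3). The points of dl, Dif, Rel, pll and key lie higher in CncC overexpression without overlap, those of cact lie lower, and spz has at most 32 counts in any library.

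The NF-kB factors of the Toll pathway are encoded by neighbouring genes on the minus strand of chromosome 2L. Dif (FBgn0011274) extends from 17413248 to 17433161 and dl (FBgn0260632) from 17436830 to 17450364, so that 3668 bases separate them. Dorsal is the factor that patterns the embryo, and Dif acts mainly in the immune response of larvae and adults. The counts of dl were 1179, 1060 and 1166 in control and 2317, 2582 and 2131 in CncC overexpression. Its lowest CncC overexpression library was thus far above its highest control library. Normalized counts of dl averaged 1160 ± 50.7 (SD, n = 3) in the controls and 2291 ± 184 (SD, n = 3) in CncC overexpression. The log2 fold change of dl was 0.98 (standard error 0.09, 95% interval from 0.79 to 1.18, adjusted p = 1.82e-05), the largest rise among the 10 genes.

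Dif was a weaker transcript than dl, both in counts and per kilobase of exon. It had 204, 240 and 274 counts in control and 408, 491 and 341 in CncC overexpression, and the genotypes did not overlap. Its normalized counts averaged 246 ± 42.2 (SD, n = 3) in the controls and 404 ± 66.9 (SD, n = 3) in CncC overexpression, which gave a log2 fold change of 0.72 (standard error 0.16, 95% interval from 0.37 to 1.07, adjusted p = 0.00298). Relative to its mean, the spread of Dif within each genotype was wider than that of dl. Dif shares 252 bases of exon, 4.42% of its exon length, with CG15141 on the opposite strand, which had 1588, 1681 and 1547 counts in control and 1975, 2276 and 2340 in CncC overexpression. Whether counting used strand is not given in the sources used here, so that reads in the shared stretch cannot be told apart. Of the reads counted on dl and Dif together, Dif took 14.8%, 18.5% and 19% in control and 15%, 16% and 13.8% in CncC overexpression. These shares overlapped. They averaged 17.4% ± 2.32 (SD, n = 3) and 14.9% ± 1.09 (SD, n = 3), and the difference did not pass an exact two-sided permutation test (p = 0.3, where 3 against 3 libraries allow no less than 0.1).

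Rel (FBgn0014018, chromosome 3R from 9044183 to 9047977 on the minus strand) encodes the NF-kB factor of the Imd pathway, which is made as a precursor with its own inhibitory repeats. It had 1048, 1030 and 1013 counts in control and 1924, 2314 and 1947 in CncC overexpression. The control libraries were nearly alike, and each CncC overexpression library lay far above them. Normalized counts averaged 1054 ± 23.7 (SD, n = 3) in the controls and 2016 ± 186 (SD, n = 3) in CncC overexpression, which gave a log2 fold change of 0.94 (standard error 0.09, 95% interval from 0.74 to 1.13, adjusted p = 2.29e-05).

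Among the members that act between receptor and NF-kB, pll had the largest fold change. It encodes the kinase of the Toll pathway and lies on chromosome 3R from 27251131 to 27253182 on the minus strand (FBgn0010441). Its counts were 900, 863 and 854 in control and 1371, 1680 and 1265 in CncC overexpression. Every CncC overexpression library was again above every control library. The log2 fold change of pll was 0.66 (standard error 0.10, 95% interval from 0.44 to 0.88, adjusted p = 0.00032), a rise of 1.58-fold. dl, Dif, pll, Rel and key each had their highest count in CncC overexpression replicate 2. The highest count of cnc was in replicate 3, and a relation of these genes to the level of cnc was not tested.

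tub (FBgn0003882), whose product bridges Myd88 and Pelle, lies on chromosome 3R from 4387742 to 4389813 on the plus strand. It had 1162, 1102 and 1200 counts in control and 1147, 1125 and 1252 in CncC overexpression, which overlapped. The log2 fold change of tub was -0.04 (standard error 0.08, 95% interval from -0.22 to 0.14, adjusted p = 0.702), and with total counts in place of TMM factors it was 0.02. Myd88, its partner upstream, had 1261, 1078 and 1129 counts in control and 1306, 1308 and 1201 in CncC overexpression, with a log2 fold change of 0.08 (adjusted p = 0.399) that turned to -0.07 with the trend with exon length removed.

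cact (FBgn0000250, chromosome 2L from 16313036 to 16326207 on the minus strand) was the only member that fell. It encodes the inhibitor of Dorsal and Dif. It had 2450, 2473 and 2292 counts in control and 2051, 2100 and 2094 in CncC overexpression, and the genotypes did not overlap. Its normalized counts averaged 2460 ± 113 (SD, n = 3) in the controls and 2037 ± 40.4 (SD, n = 3) in CncC overexpression. The log2 fold change of cact was small, at -0.27 (standard error 0.08, 95% interval from -0.45 to -0.10, adjusted p = 0.0123), or 0.828-fold. The call was lost without control replicate 2, where the log2 fold change was -0.24 (adjusted p = 0.0518). It was also lost with the replicate number as a block, at -0.27 (adjusted p = 0.0607). cact shares 62 bases of exon, 1.87% of its exon length, with fzy on the opposite strand, which had 2537, 2910 and 2704 counts in control and 1745, 1581 and 2075 in CncC overexpression.

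The level of the inhibitor was also set against that of the factors it holds, within each library and per kilobase of exon, so that scaling between libraries plays no part. The log2 ratio of cact to dl plus Dif was 1.75, 1.85 and 1.59 in control and 0.515, 0.374 and 0.687 in CncC overexpression. The ratio was thus lower in 3 of 3 CncC overexpression libraries than in any control library. It averaged 1.73 ± 0.131 (SD, n = 3) in the controls and 0.525 ± 0.157 (SD, n = 3) in CncC overexpression, a difference of -1.20. In linear terms the counts per kilobase of cact were 3.31 times those of dl plus Dif in control and 1.44 times in CncC overexpression. In raw counts, not divided by exon length, cact was at 1.75 times dl plus Dif in control and 0.758 times in CncC overexpression. Whether cact lies above dl plus Dif in CncC overexpression thus depends on the division by length. The exact two-sided permutation test gave p = 0.1, the smallest it can give with 3 libraries against 3. This ratio combines the changes of cact, dl and Dif given above and adds no separate measurement.

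**Figure D2:**
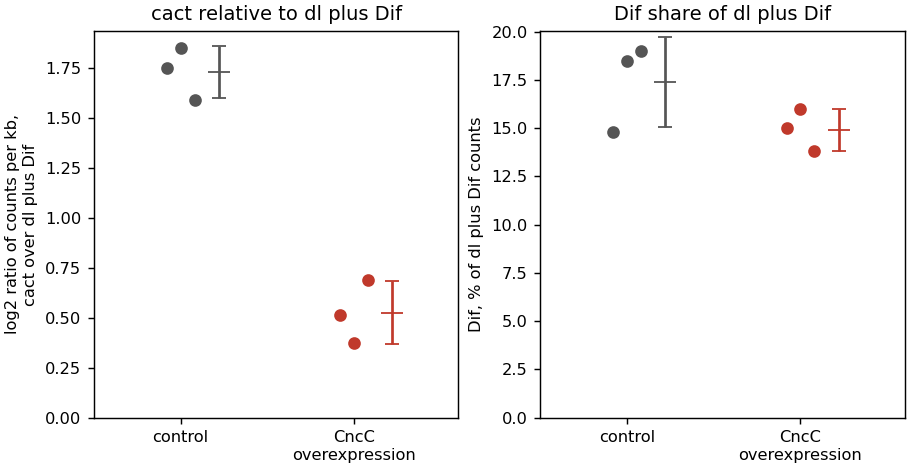
Left, the log2 ratio of cact to dl plus Dif counts per kilobase of exon in each library; right, the percentage of dl plus Dif counts that fell on Dif. Points are libraries (n = 3 per genotype) and bars the mean ± SD. The ratio lies between 1.59 and 1.85 in control and between 0.374 and 0.687 in CncC overexpression, whereas the Dif shares of the genotypes overlap.

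Upstream, neither receptor nor ligand passed the test. Tl (FBgn0262473, chromosome 3R from 26799041 to 26842403 on the plus strand) had 1228, 1056 and 1053 counts in control and 1287, 1267 and 1303 in CncC overexpression. The genotypes did not overlap, but control replicate 1 came close to the CncC overexpression libraries. The log2 fold change of Tl was 0.15 (standard error 0.08, 95% interval from -0.02 to 0.32, adjusted p = 0.113), which leaves room for a rise of up to 1.25-fold. spz (FBgn0003495, chromosome 3R from 27064990 to 27070070 on the minus strand) was barely detected, with 32, 16 and 18 counts in control and 22, 13 and 6 in CncC overexpression. Its libraries overlapped. For spz the log2 fold change was -0.74, with a wide interval (standard error 0.45, 95% interval from -1.75 to 0.27, adjusted p = 0.179). Without CncC overexpression replicate 1 it passed as lower, at -1.25 (adjusted p = 0.0451).

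Of the other Imd members, key rose slightly and imd did not pass. key (FBgn0041205, chromosome 2R from 24785514 to 24787411 on the minus strand), the regulatory subunit of the IkB kinase complex, had 1757, 1768 and 1719 counts in control and 2212, 2235 and 2029 in CncC overexpression. These groups did not overlap, and the normalized count went from 1789 ± 61.3 (SD, n = 3) to 2112 ± 80.9 (SD, n = 3). The log2 fold change of key was 0.24 (standard error 0.08, 95% interval from 0.07 to 0.41, adjusted p = 0.0208). The call was lost without control replicate 1 (adjusted p = 0.0765), without control replicate 3 (adjusted p = 0.0917) and with upper-quartile scaling (adjusted p = 0.0879). imd (FBgn0013983, chromosome 2R from 18409796 to 18413599 on the minus strand), the adaptor that gives the pathway its name, had 350, 351 and 293 counts in control and 314, 277 and 297 in CncC overexpression. Control replicate 3 lay within the CncC overexpression range, and the log2 fold change of imd was -0.23 (standard error 0.11, 95% interval from -0.47 to 0.02, adjusted p = 0.103).

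Over all genes tested the log2 fold change rose with the log2 of exon length, with a slope of 0.206, and dl and Dif have the longest exon sequence of the 10 genes (6432 and 5695 bases). With this trend removed by a loess curve, the log2 fold change was 0.67 for dl (adjusted p = 0.000216), 0.80 for Rel (adjusted p = 2.11e-05), 0.70 for pll (adjusted p = 0.000165), 0.36 for key (adjusted p = 0.000506) and -0.39 for cact (adjusted p = 0.000489). These 5 kept their calls. Dif went to 0.43 and lost its call (adjusted p = 0.0559). Tl, with 5198 bases of exon, changed sign to -0.11 (adjusted p = 0.188).

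**Figure D3:**
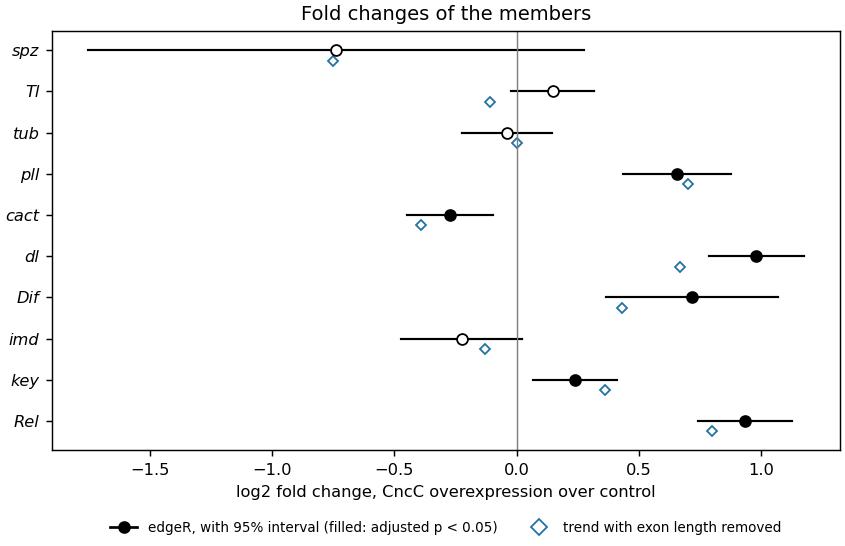
Log2 fold change of each gene in CncC overexpression over control (circles, with 95% intervals from edgeR; filled where the adjusted p was under 0.05), and the same after removal of the trend with exon length (diamonds). With the trend kept dl (0.98), Rel (0.94), Dif (0.72) and pll (0.66) lie furthest above 0, and with it removed Rel (0.80), pll (0.70), dl (0.67) and Dif (0.43), the last of which lost its call.

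Levels were compared between genes as normalized counts per kilobase of exon. In control discs the order was key (1259), cact (740), tub (589), pll (462), Rel (301), imd (223), Tl (219), dl (180), Dif (43.1) and spz (9.44). The ranges of imd and Tl overlapped, and all other neighbours in this order were apart in every library. Transcripts for the NF-kB factors were thus below those for the inhibitor cact and the kinase subunit key. In CncC overexpression key stayed highest (1486), followed by pll (728), cact (613), Rel (576), tub (573), dl (356), Tl (242), imd (191), Dif (70.9) and spz (5.64). Here pll had moved above cact and tub, and dl above imd and Tl, while the ranges of cact, Rel and tub overlapped one another.

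**Figure D4:**
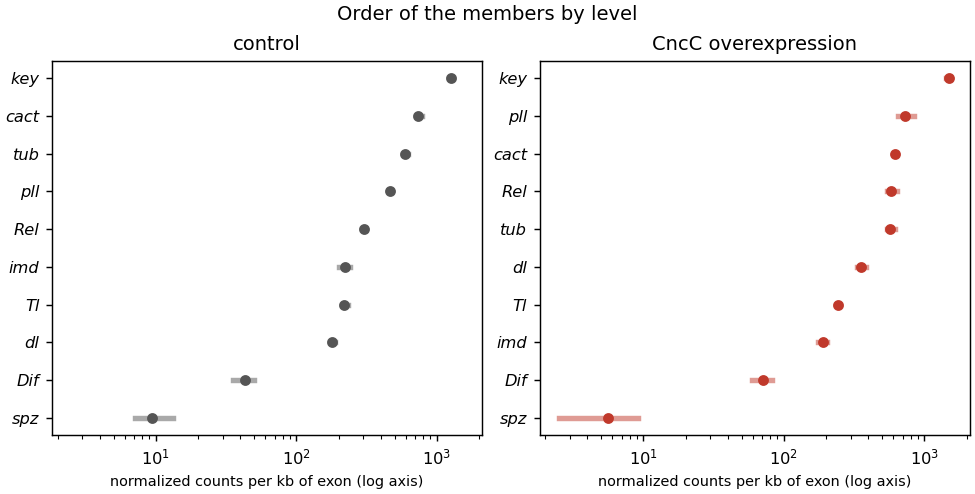
Normalized counts per kilobase of exon of the 10 genes in control (left) and CncC overexpression (right), on a log axis and sorted by level within each panel. Points are means of 3 libraries and bars run from the lowest to the highest library; key is highest in both (1259 and 1486), and dl goes from the eighth place (180) to the sixth (356).

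The other genes of both pathways were examined by role. Of 97 listed genes besides the 10 members, 94 had counts and 58 could be tested; 19 were higher, 15 lower and 24 did not pass, with a median log2 fold change of 0.09. These shares were near those over all genes tested, 30.9% higher and 31.6% lower, and no list was tested as a group. Another 30 had at most 3 counts in every library.

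The 3 genes listed as receptors of the Imd pathway were all higher. PGRP-LC, the transmembrane receptor for bacterial peptidoglycan, had 83, 55 and 61 counts in control and 273, 267 and 199 in CncC overexpression, or a difference of 1.83 on the log2 scale (standard error 0.18, adjusted p = 3.01e-05). PGRP-LE, which senses peptidoglycan inside cells, rose by 0.47 (adjusted p = 0.000533). PGRP-LA, which the rule for named genes left out for its low counts and which was added after its values were seen, had 21, 31 and 17 counts in control and 53, 43 and 34 in CncC overexpression (log2 fold change 0.84, adjusted p = 0.0329). Its call was lost without control replicate 1 or 3 or CncC overexpression replicate 1 or 2, with log2 fold changes no lower than 0.67 and adjusted p-values of up to 0.135. Thus 3 of 3 listed receptors passed as higher, beside 30.9% of all genes tested. With a fold change of at least 1.4 also required, 2 were higher, beside 20.5% of all genes. The genotypes did not overlap for any of the 3, beside 33.6% of all genes that were higher without overlap. PGRP-LA (9334332 to 9338336) and PGRP-LC (9338810 to 9348336) are neighbours on the plus strand of chromosome 3L. PGRP-LF, named below, follows them there (9349609 to 9351489).

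Below these receptors, 4 of 10 other intracellular Imd genes were higher, 2 lower and 4 did not pass. Of all genes tested 30.9% were higher and 31.6% lower. With a fold change of at least 1.4 also required, 2 of the 10 were higher, beside 20.5% of all genes. IKKbeta, the catalytic partner of key in the kinase complex, had 527, 455 and 460 counts in control and 1019, 1283 and 989 in CncC overexpression, or a difference of 1.13 on the log2 scale (standard error 0.10, adjusted p = 2.34e-05). It rose 2.18-fold against 1.18-fold for key. Diap2, a ubiquitin ligase needed for Imd signalling, had 1322, 1348 and 1289 counts in control and 2981, 3394 and 2386 in CncC overexpression (log2 fold change 1.08, adjusted p = 4.84e-05). Dredd, the caspase that cleaves Imd and Relish, rose by 0.44 (adjusted p = 0.00124), and Tab2, the partner of the kinase Tak1, by 0.26 (adjusted p = 0.0128). The ubiquitin-conjugating enzymes ben and eff, which serve many pathways, were lower, with log2 fold changes of -0.28 (adjusted p = 0.02) and -0.35 (adjusted p = 0.00618). Tab2 lost its call without control replicate 3 (adjusted p = 0.0901) and went to 0.09 with the trend with exon length removed, and ben lost its call without control replicate 2 or 3 or CncC overexpression replicate 2, with adjusted p-values of up to 0.082.

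Of the negative regulators of Imd, 9 of the 15 with counts could be tested, and 6 were higher, 0 were lower and 3 did not pass, beside 30.9% of all genes higher and 31.6% lower. With a fold change of at least 1.4 required 3 were higher, beside 20.5% of all genes. Removal of the exon length trend left 5 higher and 1 lower. Among them were dnr1, an inhibitor of Dredd, at a log2 fold change of 0.68 (adjusted p = 0.00476), and the deubiquitinating enzymes scny at 0.54 (adjusted p = 0.00201), Usp2 at 0.41 (adjusted p = 0.00689) and CYLD at 0.34 (adjusted p = 0.00333). With the trend with exon length removed Usp2 went to 0.05 and lost its call, its highest adjusted p over all alternatives being 0.528. PGRP-LF, an inhibitory receptor added after its values were seen, had 2, 4 and 2 counts in control and 17, 11 and 11 in CncC overexpression (log2 fold change 2.17, adjusted p = 0.00435).

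Intracellular Toll genes besides the members were mixed. Of 9, 1 was higher, 3 lower and 5 did not pass, beside 30.9% of all genes higher and 31.6% lower. Without CncC overexpression replicate 1 the counts were 3 higher and 1 lower, and 1 was lower without control replicate 1 or 3 or CncC overexpression replicate 2, with total counts, with DESeq2's test and with the replicate number as a block. Traf6, an adaptor that binds Pelle, rose from a normalized count of 1017 ± 16.8 (SD, n = 3) to 1518 ± 68.0 (SD, n = 3), a log2 fold change of 0.58 (adjusted p = 0.000115). lwr, the SUMO-conjugating enzyme that acts on Dorsal among many other proteins, had a log2 fold change of -0.77 (adjusted p = 0.000284). Pli (Pellino) and the transcription factor Deaf1 were slightly lower, at -0.24 (adjusted p = 0.0308) and -0.24 (adjusted p = 0.0414). Pli lost its call without any 1 of the control libraries or CncC overexpression replicate 1 or 2 (adjusted p of up to 0.091), and Deaf1 without control replicate 1 or 3 or CncC overexpression replicate 1 or 2 (adjusted p of up to 0.146).

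Among the genes that produce active Toll ligand, 3 of 17 tested were higher, 6 were lower and 8 did not pass, beside 30.9% of all genes higher and 31.6% lower. wbl (windbeutel), needed in the ovary for the function of the sulfotransferase encoded by pip, had 2160, 1691 and 1755 counts in control and 59, 173 and 104 in CncC overexpression, or a difference of -4.12 on the log2 scale (standard error 0.26, adjusted p = 4.77e-06). pip itself fell from a normalized count of 347 ± 74.4 (SD, n = 3) to 97.8 ± 24.0 (SD, n = 3), a log2 fold change of -1.83 (adjusted p = 6.77e-05). Both are known for embryonic patterning, and the protease easter, product of ea, which cleaves Spätzle in that setting, moved the other way, at 0.86 (adjusted p = 0.00032).

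No gene of the ligand family passed as higher. Of the relatives of spz, spz6 fell with a log2 fold change of -1.66 (adjusted p = 1.24e-05) and spz5 with one of -0.82 (adjusted p = 0.0146). In the recognition step, PGRP-SA, the circulating sensor that acts ahead of Toll, had 23, 28 and 25 counts in control and 157, 61 and 42 in CncC overexpression, a log2 fold change of 1.70 (adjusted p = 0.00822). CncC overexpression replicate 1 stood far above the other libraries, and without it the log2 fold change was 0.96, with adjusted p-values of up to 0.0244 when any library was left out. The protease modSP rose by 0.22 (adjusted p = 0.0346). Its call was lost without any 1 of the libraries except CncC overexpression replicate 3 (adjusted p of up to 0.137), and that of spz5 without control replicate 2 or 3 or CncC overexpression replicate 2 or 3 (adjusted p of up to 0.0623). SPE and GNBP3, the processing enzyme of Spätzle and a sensor of fungal glucans, were also lower and were named after their values were seen, with log2 fold changes of -1.06 (adjusted p = 0.00437) and -0.51 (adjusted p = 0.00169).

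Serpins, a family of protease inhibitors, included 1 higher and 3 lower genes of 7, beside 30.9% of all genes higher and 31.6% lower. Spn27A, the inhibitor of easter, rose by 0.52 (adjusted p = 0.00237), and Spn55B, Spn28Dc and Spn88Ea were lower, with log2 fold changes of -0.44 (adjusted p = 0.014), -0.35 (adjusted p = 0.00391) and -0.35 (adjusted p = 0.00493). Of the other receptors of the Toll family, Toll-7 passed as higher at 0.38 (adjusted p = 0.0254) although its libraries overlapped, and it went to 0.06 with the trend with exon length removed. Toll-7 lost its call without control replicate 2 or 3 or CncC overexpression replicate 2 or 3 (adjusted p of up to 0.103), and Spn55B without control replicate 3 or CncC overexpression replicate 2 or 3 (adjusted p of up to 0.0717). Toll-4, Tehao and Toll-6 had at most 2 counts in any library.

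**Figure D5:**
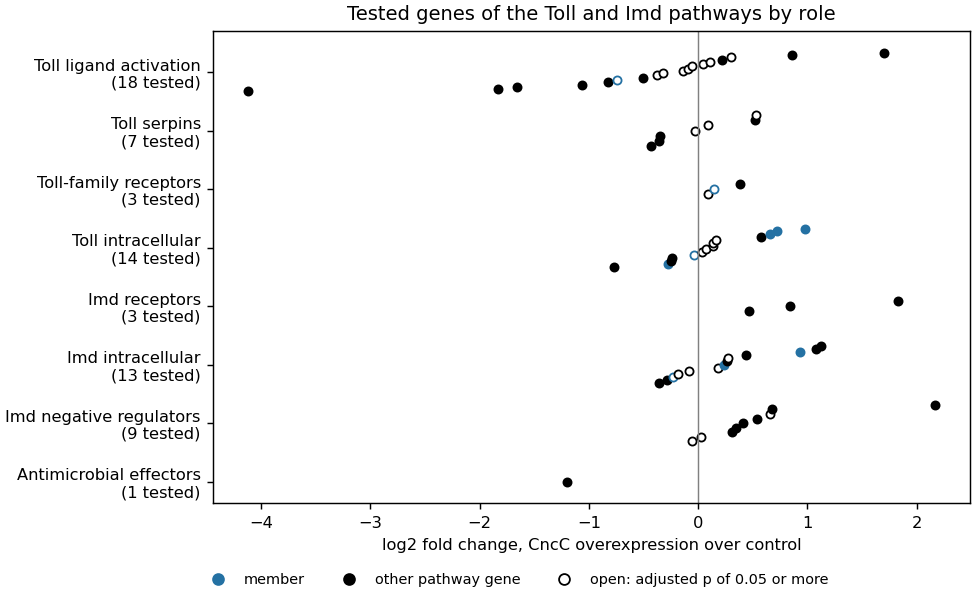
Log2 fold change of every tested gene of the Toll and Imd lists, CncC overexpression over control, in 1 row per role (blue, the members; black, other genes; filled, adjusted p under 0.05). The 3 Imd receptors lie from 0.47 to 1.83 and wbl stands alone at -4.12.

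The antimicrobial genes in the counts, among the best known targets of Dorsal, Dif and Relish, were close to absent from both genotypes. Drs was listed too but was not analysed here, so its level is not known. Of the 23 antimicrobial genes in the counts, 10 had 0 counts in all 6 libraries. In any library 20 had at most 3, among them every listed cecropin and diptericin gene. Their summed count was 25, 35 and 17 in control and 17, 18 and 18 in CncC overexpression. The genotypes overlapped. Most of the sum came from AttB and Def, and the other 21 genes held 5, 5 and 2 counts in control and 3, 8 and 4 in CncC overexpression. Def, the only one with enough counts to test and named after its values were seen, had 17, 22 and 10 counts in control and 8, 6 and 8 in CncC overexpression (log2 fold change -1.20, adjusted p = 0.0286), and its adjusted p reached 0.291 over the alternatives. The call of Def was lost without control replicate 1 or 2 or CncC overexpression replicate 2 or 3 (adjusted p of up to 0.114). A rise of these 23 genes in CncC overexpression was not detectable at this depth.

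The genes whose log2 normalized counts followed those of dl, Dif and Rel most closely over the 6 libraries were listed as a description. With 2 genotypes that stand apart, any gene that differs between them scores high. For dl they were CG42258 (Pearson r 0.9994), CG32055 (0.9988) and CG45088 (0.9986), and for Rel CG8034 (0.9997), FBgn0050497 (0.9992) and Zw10 (0.9987). For Dif they were Uch (0.9926), FBgn0015324 (0.9916) and CG7332 (0.9909). No other member was among the nearest genes of dl, Dif or Rel.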

How the data were processed

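RNA-seq of wing discs was analysed from 3 control and 3 CncC overexpression libraries. TruSeq libraries were prepared from 500 ng of RNA each. The authors deposited whole-number counts of reads per gene without normalization for each library. The submitters' processing notes name FastQC 0.11.5, Bowtie and the build BDGP6. The counting tool and its use of strand are not given in the sources used here. A table of the whole series was not used. The 10 genes and all gene lists were chosen with earlier results of these data known. Of 13955 identifiers, 13661 matched Ensembl's annotation of BDGP6.54, used for symbols, coordinates and exon lengths, and 18w, Drs, ap, wg, PPO1, FASN1, btl and Sh3rf were not analysed here.

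Differences were tested in R 4.3.3 with edgeR 4.0.16 (TMM, filterByExpr, quasi-likelihood test, Benjamini-Hochberg adjustment over 8361 genes), which called a gene at an adjusted p under 0.05. The common biological coefficient of variation was 0.115, and intervals cover 95%. The alternatives were other scalings, DESeq2 1.42.0, limma-voom (limma 3.58.1), other filters and limits, the replicate number as a block, a loess removal (span 0.5) of the trend with exon length, and leaving out each library in turn. The fits were tested on simulated data. All 10 members were named. Of each other list, up to 4 genes per direction were named, those with the largest log2 fold change that passed and averaged 50 or more normalized counts, and also any gene with no more than 3 counts per library in one genotype and 20 or more normalized counts per library in the other. For dl, Dif and Rel the 3 most correlated genes were named.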

Additional observations from a re-analysis of the deposited data

How the results depend on the processing

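dl, Rel and pll kept their direction and their call under all 16 alternatives of scaling, test, filter, block, length trend and left-out library, with log2 fold changes of 0.66 to 1.05, 0.80 to 0.99 and 0.55 to 0.75. The number of members called higher was 5, and 0 with a fold change of at least 2 required. The number called lower was 1, and it was 0 with the fold limits of 1.4 and 0.6, with those of 2 and 0.5, with an adjusted p under 0.01 and with the replicate block. Leaving out 1 library gave from 0 (without control replicate 2) to 2 (without CncC overexpression replicate 1) called lower. Whether same-numbered libraries were collected or prepared together is not given by the labels. Their deviations from the genotype means correlated at -0.168, 0.0864 and 0.13, which cannot settle it. With the replicate block cact was at -0.27 (adjusted p = 0.0607) and key at 0.24 (adjusted p = 0.0866), and no other member changed its call. Tl reversed to -0.11 with the trend with exon length removed, with or without the replicate block, as did Myd88, to -0.07. tub reversed to 0.02 with total counts and ranged from -0.08 to 0.01 when 1 library was left out. Of the values of the other named genes under the alternatives, stricter limits included, 553 kept their outcome, whether passed or not. Another 108 lost their call with the same direction, and 2 changed sign. Of the counts over lists, 254 stayed within 1.5 times and 50 did not. Causes of these changes were not tested. spz was not tested with at least 10 counts required in every library. A correction for GC content was planned and was not run, as no genome sequence was used here. Depth limits spz, PGRP-LF and the antimicrobial genes, where few reads stand behind each value.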
